A study of Rattus norvegicus with 3 samples.

Results

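The genes described here make fatty acids, modify them and build them into sphingolipids. They were chosen as the rows of the authors' gene table whose symbol equals an entry of a list of 49 symbols, and 47 of the 49 matched, out of 17337 genes in the table. Scd, a stearoyl-CoA desaturase gene, stands in the table as Scd1, which RefSeq gives as its synonym. It is described beside the 47 and not counted with them, and Cers6, which matched no row, was not analysed here. RNA was sequenced in 3 libraries of Schwann cell precursors, the early glia of peripheral nerve. They are primary cells of wild-type embryonic rats, with dorsal root ganglion as the source tissue. The cells were cultured in a modified Sato medium and left untreated, and the age of the embryos is not given in the sources used here. With 1 group of 3 libraries, what can be read is the level of each gene and not a response to any condition. Whether the libraries stem from separate cultures is not stated, so every SD and p-value reflects the spread among these libraries alone, and that spread may be technical.

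Total counts were 14139074 to 15309526 per library. Levels are in TPM, a count per base of gene brought to the same total in every library, and are given for replicates 1, 2 and 3 or as mean ± SD (n = 3). The label was checked against markers. All 11 measured Schwann cell precursor markers were above 1 TPM by limma, a call that 78.4% of all 13345 genes tested also received, and their summed level was 10188 to 10415 TPM over the libraries. Sox10 and Erbb3, which define the early glial lineage, were at 612 ± 26.0 TPM and 581 ± 14.3 TPM. Fibroblast markers were also present, 6 of 6 above 1 TPM with a summed level of 8283 to 8483 TPM, as were 7 of 7 sensory neuron markers with 739 to 763 TPM. The neuron markers were uneven. Tubb3, Prph, Nefl, Nefm and Stmn2 averaged 124 to 185 TPM, while Elavl4 was at 3.10 ± 0.339 TPM and Isl1 at 2.23 ± 0.484 TPM. Of the macrophage markers 4 of 6 were above 1 TPM, led by Lyz2 at 9.85 ± 0.463 TPM and Tyrobp at 8.35 ± 1.32 TPM, with a summed level of 24.7 to 29.8 TPM and Ptprc below 1 TPM. Of the endothelial markers 3 of 7 were above, Cdh5 at 16.6 ± 1.03 TPM, Emcn at 13.7 ± 0.836 TPM and Tek at 4.69 ± 0.211 TPM, with a summed level of 34.1 to 36.6 TPM. Cldn5 had no count and Pecam1 was at 0.0693 ± 0.0695 TPM. Of 5 skeletal muscle markers 2 were below 1 TPM and 3 had no count, and oligodendrocyte markers were above in 2 of 6. Of the myelinating Schwann cell list 5 of 7 were above. Of the adipocyte list 3 of 7 were above 1 TPM with a summed level of 120.0 to 124 TPM, of which Adipor2 held 114 ± 3.31 TPM, and its defining genes Adipoq, Plin1 and Lep had no count. The libraries hold RNA of whole cultures, in which fewer cells of a type and less RNA per cell cannot be told apart. The part of fibroblasts and neurons in the levels below was not tested.

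Fatty acids are made in the cytosol from acetyl-CoA. ATP citrate lyase supplies acetyl-CoA, acetyl-CoA carboxylase turns it into malonyl-CoA, and fatty acid synthase joins these units into palmitate, which elongases lengthen and desaturases give double bonds. Sphingolipids start where serine palmitoyltransferase joins serine to palmitoyl-CoA, and ceramide synthases then add a second fatty acid whose length depends on the isoenzyme. Ceramide receives a galactose, a glucose or a phosphocholine headgroup. Myelin is rich in galactosylceramide and its sulfated form with very long fatty acids, and for this reason the branch toward galactolipids is of interest in Schwann cells.

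As a group these genes were well represented. In every library, 41 of the 47 reached 1 TPM (87.2%), as did 60.6% of all 17337 genes. A level of 10 TPM was reached in every library by 35 of the 47 (74.5%) and by 47.4% of all genes, and one of 100 TPM by 16 (34.0%) and by 11.7%. Their median was 52.8, 51.2 and 52.7 TPM in the 3 libraries, while that of all genes in the table was 8.28 to 8.56 TPM and that of genes with a count 21.5 to 21.9 TPM. By limma against 1 TPM with Benjamini-Hochberg adjustment over all genes tested, 41 of the 45 members with a count were above 1 TPM (91.1%), beside 78.4% of the 13345 genes tested. No member was below by limma, none at an unadjusted p under 0.05 either, whereas 17.8% of all tested genes were below. The members passing neither way were Acacb, Elovl7, Acsl6 and Fabp4, and Elovl3 and Cers1 had no count. Scd2 and Dbi together held 54.9% of the summed level of the 47, which was 13243 to 13383 TPM, and the other 45 made up the remainder.

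**Figure D1:**
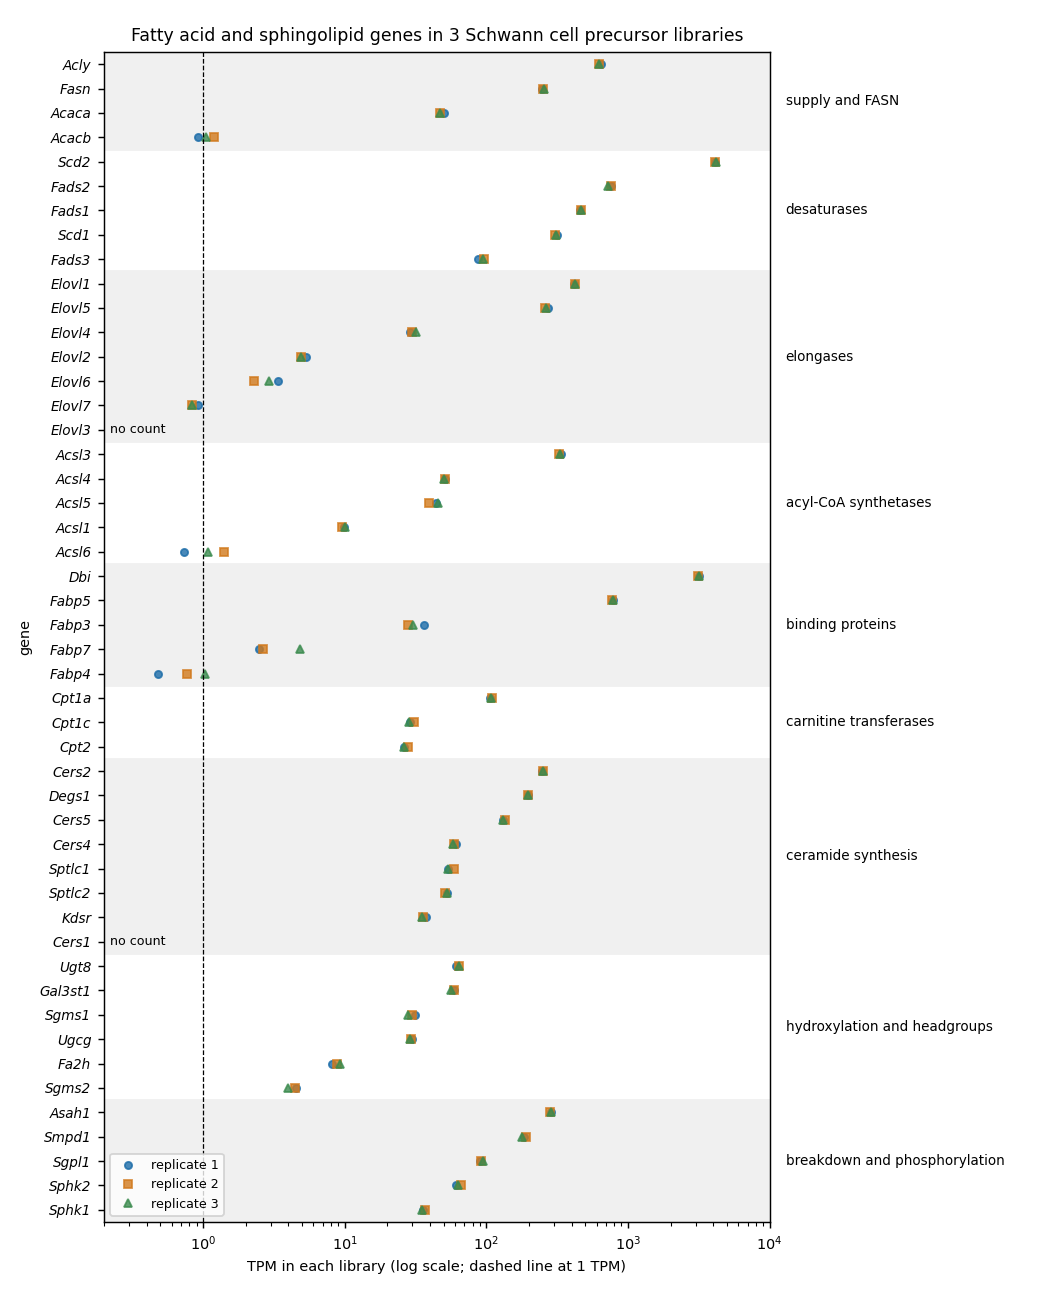
TPM of the 47 genes and of Scd1 in each of 3 libraries (points, log axis), grouped by step in the pathway and ordered by mean within a step; genes without a count are marked in words. The lowest point of Scd2 is at 4106 TPM and that of Dbi at 3119 TPM, and the points of most genes above 10 TPM nearly coincide.

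The supply of building blocks was led by Acly, the ATP citrate lyase gene. Acly was at 641, 629 and 627 TPM, and Fasn, the fatty acid synthase gene, at 245, 253 and 256 TPM. Acaca, which encodes the cytosolic acetyl-CoA carboxylase that feeds fatty acid synthase, was at 50.4, 47.5 and 47.2 TPM. Acacb, whose product sits at mitochondria and makes the malonyl-CoA that restrains fatty acid entry, was at 0.921, 1.19 and 1.05 TPM. The ranges of the 4 genes do not overlap, in the order Acly, Fasn, Acaca, Acacb, and Acacb lies on both sides of 1 TPM (limma adjusted p = 0.647). Acaca held 97.9% ± 0.325 of the summed level of the pair of carboxylases, and exceeded Acacb by a log2 ratio of 5.40 ± 0.21. Acly exceeded Acaca by 3.71 ± 0.035 and Fasn exceeded Acaca by 2.37 ± 0.082 on the same scale. All ratios of gene pairs are log2 ratios of TPM after adding 0.1 TPM to both genes, as mean ± SD over 3 libraries. An exact sign-flip permutation test (two-sided) of such a ratio cannot go below p = 0.25 with 3 libraries, so no ratio can pass a threshold of 0.05. A ratio is therefore set against its SD. Of 40 pairs measured, the gene named before the other was higher in each library in 33 and lower in 6, and 1 pair was mixed. The pairs were chosen with earlier results of these data known, so these counts are no finding about the genes. They include 5 pairs with Elovl6, Elovl3 or Cers1, and no level can be read for Elovl6 or Cers1. Each ratio depends on the gene lengths in the table, and whether reads of both genes were recovered alike was not measured.

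The desaturases had the highest summed level of the 9 steps into which the genes fall, 5444 ± 34.3 TPM over the 4 listed genes. Scd2, a stearoyl-CoA desaturase that makes monounsaturated fatty acids and is the form of brain and nerve in rodents, was at 4120.3, 4106 and 4200.1 TPM, rank 9 of all genes. The row named Scd1, the form most studied in rodent liver and fat, was at 315, 307 and 308 TPM. Scd2 exceeded Scd1 in 3 of 3 libraries, by a log2 ratio of 3.74 ± 0.029 or 13.4-fold of means, and held 93.04% ± 0.130 of their summed level. Scd2 (NCBI gene 83792 in the table) has 6 listed exons on the plus strand at chr1:264059374-264072433 in rn6. Scd1 has 6 on the minus strand at chr1:264160129-264172729, on the same chromosome.

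The stretches of 250 bases before the RefSeq start sites of Scd2 and Scd in the GRCr8 build are printed because this is the pair at a single step with the most abundant member, and those of Elovl1 and Elovl3 because they are the highest elongase gene and the elongase gene with no count. Capitals mark CCAAT, the box bound by NF-Y, and GGGCGG, the GC box bound by Sp1, each read on both strands (ATTGG and CCGCCC on the other strand).
Scd2, chr1:253118127-253118376, plus strand: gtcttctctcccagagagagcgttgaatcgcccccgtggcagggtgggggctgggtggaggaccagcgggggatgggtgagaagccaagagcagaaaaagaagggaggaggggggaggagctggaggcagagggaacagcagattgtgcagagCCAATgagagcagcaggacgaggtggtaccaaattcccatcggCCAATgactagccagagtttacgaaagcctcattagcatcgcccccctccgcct
Scd, chr1:253231732-253231981, minus strand: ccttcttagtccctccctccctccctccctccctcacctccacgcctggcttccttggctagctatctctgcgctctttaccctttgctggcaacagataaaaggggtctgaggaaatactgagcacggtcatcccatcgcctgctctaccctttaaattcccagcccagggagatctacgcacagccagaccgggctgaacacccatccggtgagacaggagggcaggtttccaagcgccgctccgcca
Elovl1, chr5:137247905-137248154, plus strand: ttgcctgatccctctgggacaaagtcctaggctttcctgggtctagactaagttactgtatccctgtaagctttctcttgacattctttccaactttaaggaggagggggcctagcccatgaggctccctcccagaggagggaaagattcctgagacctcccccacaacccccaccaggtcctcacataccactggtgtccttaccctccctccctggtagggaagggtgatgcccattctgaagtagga
Elovl3, chr1:254938481-254938730, plus strand: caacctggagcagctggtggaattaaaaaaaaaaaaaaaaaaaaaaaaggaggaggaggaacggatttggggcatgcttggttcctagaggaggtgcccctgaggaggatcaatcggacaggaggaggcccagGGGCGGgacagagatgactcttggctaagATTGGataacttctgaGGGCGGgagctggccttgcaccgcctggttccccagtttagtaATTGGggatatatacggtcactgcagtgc
The Scd2 stretch holds 2 CCAAT boxes and no GC box, and those of Scd and Elovl1 hold neither. The Elovl3 stretch holds 2 of each. Of the 47 genes 39 have an entry among these RefSeq sequences, with 42 entries in all because some genes have several start sites. A CCAAT box is in 19 of the 42 entries (45.2%) and a GC box in 26 (61.9%), where the shares over all 33469 entries of the same length are 34% and 30.5%. The E-box CACGTG and the TATA box TATAAA, also read on both strands, are in none of the 4 stretches. They are in 1 and 3 of the 42 entries, and in 5.59% and 12.9% of all entries. A match of letters is a description and not a site of binding.

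The other desaturases act on polyunsaturated fatty acids. Fads2, which introduces the initial double bond of that route, was at 758, 758 and 719 TPM, and Fads1, which acts after the elongation that follows, was at 458, 465 and 469 TPM. Fads3, for which activity on sphingoid bases has been described, was at 86.9, 96.6 and 94.8 TPM. Their ranges do not overlap. Fads1 was lower than Fads2, with a log2 ratio of -0.68 ± 0.058, and Fads2 was 8.03-fold higher than Fads3, in 3 of 3 libraries. The order of Fads1 and Fads2 depends on the listed lengths of 3355 and 1617 bases. In CPM, which are counts scaled to the library total and not divided by length, the ratio of Fads1 to Fads2 was 0.37. In the table, 2 of the 12 listed exons of Fads2 lie 207043 bases from the other 10, and the effect of this gene model on its level was not tested. Scd2 exceeded Fads2 by 2.48 ± 0.061.

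Of the elongase genes whose level can be read, Elovl1 and Elovl5 had the highest levels. Elovl1, which lengthens saturated and monounsaturated acyl chains to the very long chains used in sphingolipids, was at 416, 423 and 423 TPM. Elovl5, which lengthens polyunsaturated chains between the actions of Fads2 and Fads1, was at 272, 260.1 and 265 TPM. Elovl1 held 58.0% ± 0.717 and Elovl5 36.6% ± 0.721 of the family's summed level, in which Elovl6 is counted at a level that cannot be read. Elovl5 was lower than Elovl1 in 3 of 3 libraries, with a log2 ratio of -0.66 ± 0.046. The next members were far below these. Elovl4, the enzyme of the longest chains in retina and skin, was at 29.1, 30.0 and 31.7 TPM, and Elovl2, which acts on longer polyunsaturated chains than Elovl5, at 5.30, 4.91 and 4.91 TPM. Elovl1 exceeded Elovl4 by 3.79 ± 0.049. Elovl5 exceeded Elovl2 by 5.69 ± 0.036, a value that drops to 3.66 in CPM, Elovl5 being listed with 900 bases and Elovl2 with 3731.

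Elovl7, another elongase of saturated chains, had 6, 5 and 5 counts, or 0.928, 0.831 and 0.830 TPM. Its 16 counts over the libraries give an exact 95% Poisson interval of 0.494 to 1.40 TPM, which covers counting error only, and limma placed it neither above nor below 1 TPM (adjusted p = 0.171). It was below with no trend in the limma fit (adjusted p = 0.0380) and with all genes tested (0.0263). Elovl1 exceeded it by 8.77 ± 0.10, or 7.82 with 1 TPM added. Elovl3, an elongase of skin and brown fat, had no count in any library, where 3 counts would correspond to at most 0.233 TPM, and Elovl1 was at least 1813-fold higher with Elovl3 set at 3 counts in each library. Elovl6, which extends palmitate to stearate, was at 3.36, 2.30 and 2.91 TPM, with replicate 1 highest and replicate 2 lowest. Its row cannot be read as a low level. The table lists it on chromosome 2 of rn6 both on the minus strand from 234187490 to 234296124 and on the plus strand from 234375315 to 234483145. Of the 204 genes listed on more than 1 chromosome or strand, 80.9% averaged under 1 TPM, against 37.6% of the other 17133 genes. The reason for this difference was not tested. Elovl6 itself averaged 2.86 TPM and was called above 1 TPM by limma. How reads that match several places were counted is not given in the sources used here.

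**Figure D2:**
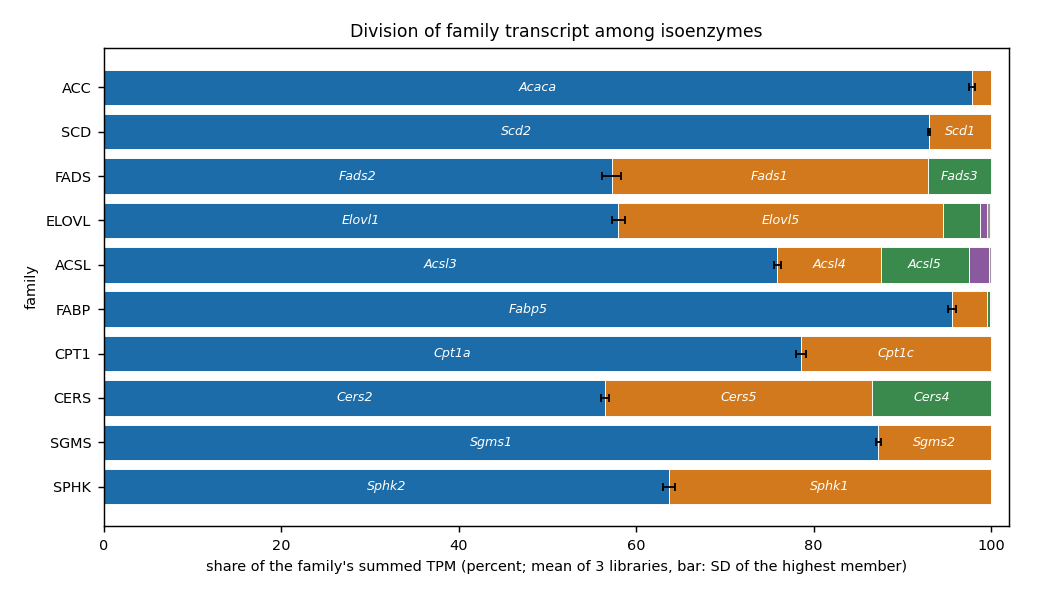
Share of each family's summed TPM held by each isoenzyme (horizontal bars, mean of 3 libraries; error bars show the SD of the highest member), with segments in order of level. The highest member holds from 56.5% in the ceramide synthases (Cers2) to 97.9% in the carboxylases (Acaca).

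Acyl-CoA synthetases activate long fatty acids for use. Acsl3, an enzyme of the endoplasmic reticulum and lipid droplets, was at 335, 324 and 330.2 TPM and held 75.9% ± 0.378 of the summed level of 5 members. Acsl4, which prefers arachidonate, was at 50.8, 50.7 and 50.4 TPM, and Acsl5, found at mitochondria and the endoplasmic reticulum, at 43.9, 39.5 and 45.7 TPM. The ranges of Acsl4 and Acsl5 do not overlap, and Acsl4 had the smallest spread of all members above 10 TPM, with a coefficient of variation (CV) of 0.392%. Counting error alone would give Acsl4 a CV of 2.40%, so the small spread is no measure of steady expression. Acsl1, the main form of fat, heart and liver, was at 9.91, 9.65 and 10.04 TPM. Acsl6, known from brain and red cell precursors, had 14, 25 and 19 counts, or 0.739, 1.42 and 1.08 TPM, highest in replicate 2, and did not pass in either direction by limma (adjusted p = 0.692). Acsl3 exceeded Acsl4, Acsl5 and Acsl1 by log2 ratios of 2.70 ± 0.024, 2.94 ± 0.092 and 5.05 ± 0.02. Against Acsl6 the ratio was 8.17 ± 0.45, or 7.33 with 1 TPM added.

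Carriers of fatty acids and acyl-CoA were uneven. Dbi, the acyl-CoA binding protein that carries activated fatty acids through the cytosol, was at 3188, 3119 and 3191 TPM, rank 14 of all genes. Fabp5, a fatty acid binding protein of skin and nervous tissue, was at 789, 769 and 782 TPM. Fabp3, the heart form, was at 36.6, 27.9 and 30.6 TPM, highest in replicate 1. An exon part of 79 bases of its 651 is shared with Zcchc17 on the opposite strand, and whether counting used the strand is not given in the sources used here. Dbi exceeded Fabp5 by a log2 ratio of 2.02 ± 0.0073, and Fabp5 exceeded Fabp3 by 4.63 ± 0.18. The former SD is the smallest of all ratios measured, but counting error alone gives CVs of 0.890% for Dbi and 1.66% for Fabp5.

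Fabp7, a marker of early glia including Schwann cell precursors, had 11, 11 and 20 counts, or 2.47, 2.66 and 4.83 TPM. Replicate 3 was highest, 1.95 times replicate 1, and the chi-square test between libraries did not pass (Benjamini-Hochberg adjusted p = 0.401 over 10929 genes). The level was above 1 TPM by limma (adjusted p = 2.7e-04). Fabp4, the form of fat cells, capillary endothelium and macrophages, had 2, 3 and 4 counts, or 0.481, 0.775 and 1.03 TPM, and limma gave an adjusted p of 0.0908 against 1 TPM. Without replicate 3 Fabp4 was below 1 TPM (adjusted p = 0.0156), while without replicates 1 or 2 it passed in neither direction. Fabp5 held 95.6% ± 0.432 of the family's summed level and exceeded Fabp7 by 7.90 ± 0.51 and Fabp4 by 9.87 ± 0.49, the last value being 8.80 with 1 TPM added. The summed adipocyte, endothelial and macrophage markers given above stand beside this value, and their part in it was not tested.

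The carnitine palmitoyltransferases had the lowest summed level of the 9 steps, at 164 ± 4.27 TPM over 3 genes. Acetyl-CoA supply and fatty acid synthase summed to 933 ± 4.04 TPM over 4 genes. The steps hold 3 to 8 measured genes, so their sums do not rank the level per gene. Genes of mitochondrial and peroxisomal oxidation, described below, summed to 1132 to 1150 TPM over 11 genes. Cpt1a, the carnitine palmitoyltransferase that controls entry, was at 106, 110.3 and 108 TPM. Cpt1c, a form of neurons with little activity of that kind, was at 29.0, 30.9 and 28.3 TPM, and Cpt2, the enzyme of the inner membrane, at 26.2, 27.9 and 26.3 TPM. Each of the 3 genes had a range apart from the other genes, though the gap between Cpt1c and Cpt2 was narrow. Cpt1a exceeded Cpt1c by 1.87 ± 0.046, and Cpt2 was lower than Cpt1a, with a log2 ratio of -2.01 ± 0.024. Fasn exceeded Cpt1a by 1.22 ± 0.027, in 3 of 3 libraries.

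The genes from serine palmitoyltransferase to ceramide summed to 784 ± 5.09 TPM. Sptlc1 and Sptlc2 encode the subunits of serine palmitoyltransferase that work as a pair, and were at 53.5, 59.3 and 53.3 TPM and 52.8, 51.2 and 52.7 TPM. Their ratio of 0.08 ± 0.11 was smaller than its SD, although the lowest Sptlc1 value lay just above the highest Sptlc2 value. The sign turns to -0.21 in CPM. Kdsr, which reduces the product of that enzyme, was at 37.6, 35.8 and 35.4 TPM. Degs1, which introduces the double bond that turns dihydroceramide into ceramide, was at 197, 198 and 198 TPM. It exceeded Kdsr by 2.44 ± 0.054. The CV of Degs1, 0.475%, lay below the 2.23% that counting error alone would give, and so does not show steady expression.

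Among ceramide synthases, Cers2 led in each library. Cers2, which adds very long acyl chains and is the form needed for myelin galactolipids, was at 246, 251 and 252 TPM. Cers5, which adds palmitoyl chains, was at 131, 135 and 132 TPM, and Cers4, which adds chains of intermediate length, at 61.4, 58.8 and 58.2 TPM. The ranges do not overlap. Cers2 held 56.5% ± 0.453 of the summed level of the measured members and exceeded Cers5 by 0.91 ± 0.02 and Cers4 by 2.07 ± 0.059. In CPM the share of Cers2 was 47.8%. The share leaves out Cers6, and for Cers1, the form of neurons and muscle, no level can be read. All 2656 bases of Cers1 are listed also as exons of Gdf1, on the same strand of chromosome 16 from 20845581 to 20860789, and neither gene has a count. For Cers2 only 48 of 2022 bases are shared with a gene on the opposite strand, Setdb1.

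At the branch of ceramide use, the gene for galactosylceramide was higher than the gene for glucosylceramide. Ugt8, which makes galactosylceramide, was at 61.0, 64.2 and 63.8 TPM, and Ugcg, which makes glucosylceramide, the base of gangliosides, was at 30.1, 29.4 and 29.1 TPM. Ugt8 exceeded Ugcg by a log2 ratio of 1.09 ± 0.063 in 3 of 3 libraries, or 2.13-fold. Gal3st1, which sulfates galactosylceramide to sulfatide, was at 59.0, 59.1 and 56.0 TPM. Its level lay below that of Ugt8 in 3 of 3 libraries, by a log2 ratio of Ugt8 to Gal3st1 of 0.12 ± 0.07, which is 1.02 in CPM. Fa2h, which hydroxylates the fatty acids of myelin galactolipids, was at 8.10, 8.82 and 9.34 TPM, and Ugt8 exceeded it by 2.84 ± 0.07. Of the genes that mark myelinating Schwann cells, Pmp22 was at 628 ± 18.9 TPM, Egr2 at 52.3 ± 2.45 TPM and Prx at 26.6 ± 1.22 TPM. Mbp was at 18.7 ± 1.08 TPM, Mal at 10.4 ± 0.772 TPM and Mag at 0.210 ± 0.0878 TPM, and Ncmap had no count.

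Sphingomyelin synthases add phosphocholine to ceramide. Sgms1, the Golgi form, was at 31.5, 29.8 and 28.0 TPM, and Sgms2, the form of the plasma membrane, at 4.57, 4.45 and 3.98 TPM. Sgms1 held 87.3% ± 0.260 of their summed level and exceeded Sgms2 by 2.75 ± 0.032. Sgms1 and Ugcg, whose products both use ceramide, differed by less than the spread between libraries. Their ratio was 0.01 ± 0.062, positive in 2 of 3 libraries, negative without replicate 1 (-0.016) and -0.72 in CPM.

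**Figure D3:**
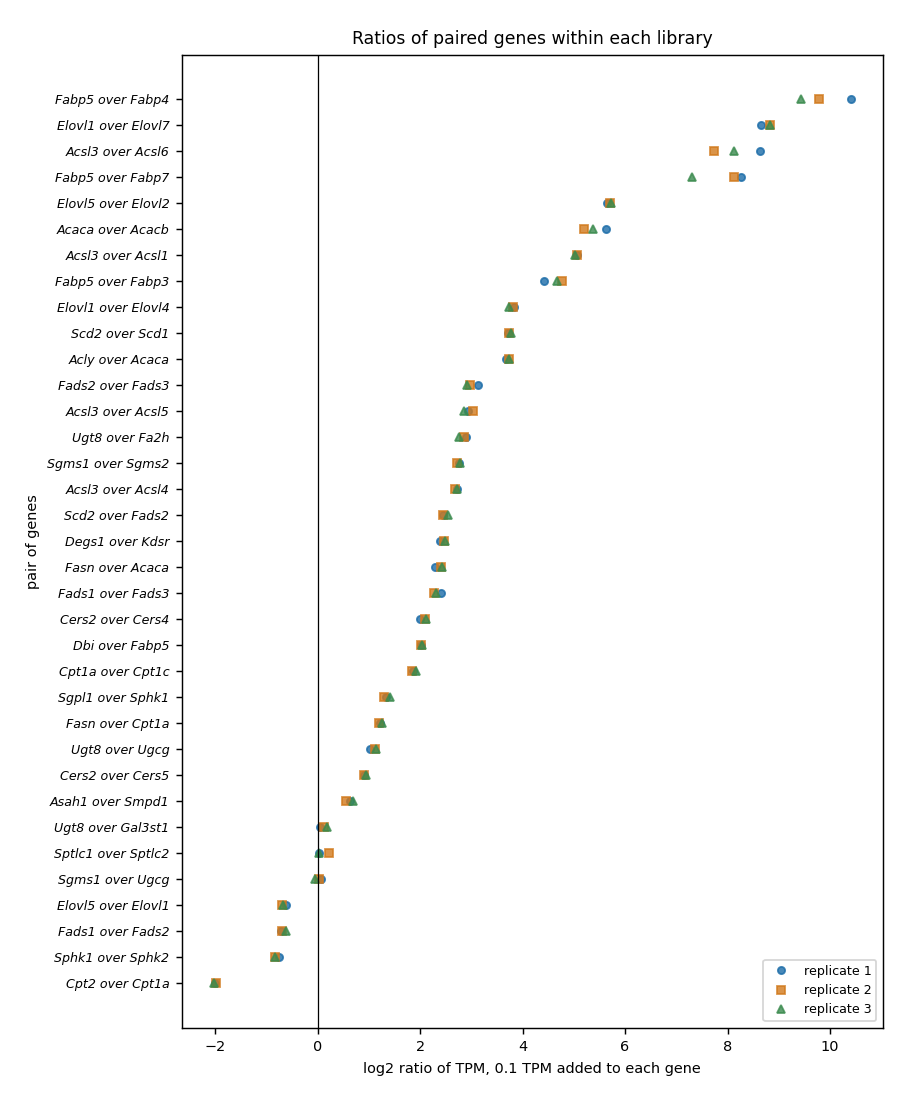
Log2 ratio of TPM (0.1 TPM added to each gene) for 35 pairs of genes in each of 3 libraries (points), ordered by the mean ratio, with a line at equal levels. The 5 pairs with Elovl6, Elovl3 or Cers1 are left out, and Sptlc1 over Sptlc2, Ugt8 over Gal3st1 and Sgms1 over Ugcg lie closest to 0.

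The genes of sphingolipid breakdown and phosphorylation summed to 660.2 ± 6.29 TPM. Asah1, the acid ceramidase of lysosomes, was at 285, 281 and 287 TPM, and Smpd1, the acid sphingomyelinase, at 184, 191 and 178 TPM. Asah1 exceeded Smpd1 by 0.62 ± 0.064. The sphingosine kinases, which make sphingosine 1-phosphate, both lay below Smpd1. Sphk1, the cytosolic form that moves to the plasma membrane, was at 35.8, 37.2 and 35.2 TPM, and Sphk2, a form also of the nucleus and mitochondria, at 60.9, 66.0 and 63.0 TPM. Sphk1 was lower than Sphk2, with a log2 ratio of -0.81 ± 0.039, which is -0.14 in CPM, their listed lengths being 3781 and 2383 bases. Sgpl1, the lyase that ends the pathway by cleaving sphingosine 1-phosphate, was at 90.3, 91.8 and 94.5 TPM, above Sphk1 by 1.35 ± 0.062. By gene ranges the order was Asah1, Smpd1, Sgpl1, Sphk2, Sphk1, with no overlap.

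The libraries gave nearly the same levels. For the 35 members with a mean of 10 TPM or more the CV over the libraries was 0.392% to 14.02% with a median of 2.27%. That of all 8372 genes with such a mean had a median of 3.84%. The 2 medians are not matched for level, as 34.0% of the 47 members but 11.7% of all genes reached 100 TPM in every library. The highest library was at most 1.31 times the lowest, in Fabp3. A chi-square test of counts, which compares these libraries and not conditions, was run on the genes with a mean count of at least 10. By this test 3 of the 43 members tested differed beyond counting error at a Benjamini-Hochberg adjusted p under 0.05 (6.98%), near the 4.99% of all 10929 genes tested. These were Scd2 (adjusted p = 8.8e-11), highest in replicate 3, Fasn (adjusted p = 0.0016), lowest in replicate 1, and Fads2 (adjusted p = 0.0323), lowest in replicate 3. Their highest libraries were 1.02, 1.04 and 1.05 times the lowest, in that order of genes. The calls rest on single libraries: without replicate 3 Scd2 had an adjusted p of 0.605, without replicate 1 Fasn had 0.768, and Fads2 had 0.0518, 0.0992 and 0.851 without replicates 1, 2 and 3. With TMM-scaled library sizes the adjusted p of Fads2 was 0.0544. Fabp7, Acsl6, Elovl6 and Fabp3, whose CVs were 39.4%, 31.5%, 18.6% and 14.02%, did not pass.

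**Figure D4:**
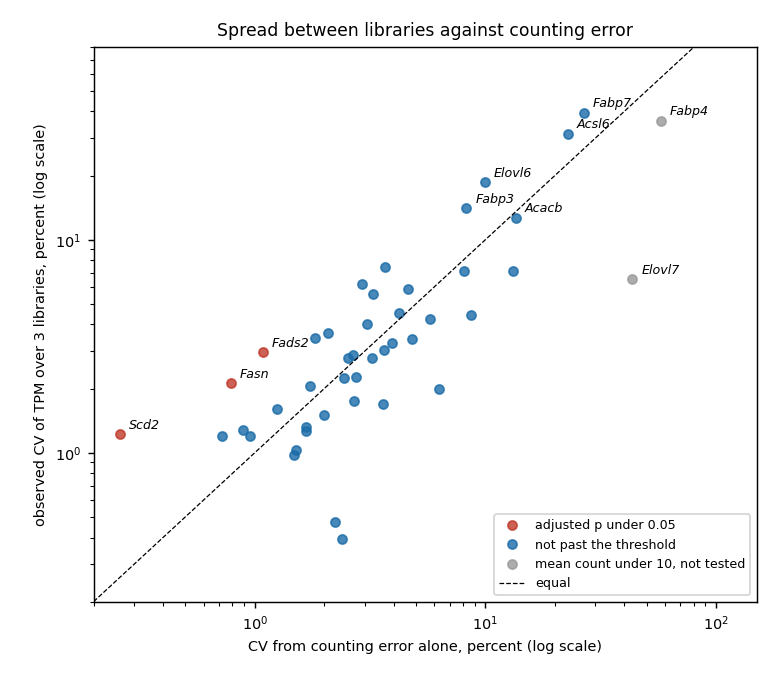
Observed CV of TPM over 3 libraries against the CV that counting error alone would give (both in percent, log axes) for the members with a count, with a dashed line where they are equal. Scd2, Fasn and Fads2 (red) lie above the line with observed CVs of 1.22%, 2.12% and 2.97%, and low-count genes such as Fabp7 lie at the upper right.

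Genes that work beside the listed ones were taken from a list of 76 in 10 groups, of which 72 were measured. By the same limma test 52 were above 1 TPM and 10 below, 2 passed in neither direction and 8 had no count. Of the 64 tested, 81.2% were above and 15.6% below, near the 78.4% and 17.8% of all genes tested, against which the counts of the groups are also to be read. The other enzymes of the elongation cycle were all above 1 TPM, 4 of 4 measured, with the enoyl reductase gene Tecr at 600.3 ± 3.12 TPM, the ketoacyl reductase gene Hsd17b12 at 154 ± 2.56 TPM, and the dehydratase genes Hacd3 at 76.3 ± 2.05 TPM and Hacd1 at 9.66 ± 0.421 TPM. All 4 genes of acetyl-CoA and NADPH supply were above 1 TPM, led by the citrate carrier Slc25a1 at 229.9 ± 6.26 TPM and the acetyl-CoA synthetase Acss2 at 80.3 ± 1.75 TPM. Of 11 regulators 9 were above. Insig1, which holds SREBP factors in the endoplasmic reticulum, was at 240.2 ± 4.31 TPM, the liver X receptor gene Nr1h2 at 99.0 ± 1.54 TPM and Srebf1, the factor that drives fatty acid synthesis genes, at 93.4 ± 1.01 TPM. The lowest of the 11 were Pparg at 1.65 ± 0.326 TPM, Mlxipl, which was below 1 TPM at 0.160 ± 0.144 TPM, and Thrsp, which had no count.

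Of 8 genes of fatty acid uptake 4 were above 1 TPM, led by the transport proteins Slc27a1 at 129.8 ± 5.72 TPM and Slc27a4 at 63.6 ± 3.63 TPM. The fatty acid translocase Cd36 was below 1 TPM at 0.0720 ± 0.0277 TPM, and Slc27a2 and Slc27a5, forms of liver, had no count. Further isoenzymes of the listed families formed another group. Of 11 measured 1 was above 1 TPM, the muscle form Cpt1b at 3.28 ± 0.549 TPM, 4 were below (Cers3, Degs2, Sptlc3 and Fads6), Acsbg1 passed in neither direction and 5 had no count, among them Fabp1, Fabp2, Fabp6 and Fabp9. Genes of mitochondrial and peroxisomal oxidation were above 1 TPM in 11 of 11, led by Hadha at 205 ± 2.13 TPM, Hadhb at 192 ± 4.49 TPM and Acadl at 166 ± 3.42 TPM, which act in the beta-oxidation of long chains. The lowest of these was the peroxisomal Ehhadh at 3.73 ± 0.355 TPM.

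Small subunits and brakes of serine palmitoyltransferase were above 1 TPM in 4 of 5. Ormdl3, which restrains the enzyme, was at 213 ± 1.92 TPM, the small subunit Sptssa at 135 ± 4.46 TPM and the other small subunit Sptssb below 1 TPM at 0.0403 ± 0.0699 TPM. Cerk, the ceramide kinase, was at 137 ± 0.786 TPM, and Col4a3bp, the carrier of ceramide to the Golgi, at 29.8 ± 0.0202 TPM. Of 11 genes of sphingolipid breakdown 8 were above, led by Psap, which encodes the saposins that help lysosomal enzymes, at 1978 ± 29.3 TPM. Arsa, which removes the sulfate of sulfatide, was at 74.8 ± 2.62 TPM. Galc, which breaks down galactosylceramide, was at 36.2 ± 2.25 TPM. Below 1 TPM were Acer1 and Sgpp2, and Acer2 passed in neither direction. All 5 ganglioside genes were above 1 TPM, with B4galt5 and St3gal5, which make lactosylceramide and the simplest ganglioside, at 73.5 ± 0.877 TPM and 71.7 ± 1.17 TPM, and St8sia1 lowest at 2.26 ± 0.794 TPM.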

How the data were processed

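RNA of 3 untreated libraries was prepared with a stranded mRNA library kit, per the labels' protocols. The submitters' processing notes name STAR 2.5.2b, Subread and the rn6 build. The authors deposited raw counts per gene, gene lengths and TPM, per the file headers. For the counting, the annotation, the strand setting and the treatment of multiply matching reads are not stated in any source at hand. Recomputing TPM from counts and lengths gave the deposited values to within 0.0005 TPM. Of the value columns only counts, lengths and TPM were used, and not others such as the counts per length of each library. Left out were also 2 rows lacking a gene name.

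Genes with a count were tested with limma 3.58.1 in R 4.3.3 on log2(TPM + 1) against 1 TPM (1-sample moderated test, two-sided, with an intensity trend, Benjamini-Hochberg over 13345 genes, threshold 0.05). The pseudocount makes differences of low genes look smaller. Counts of genes with a mean of at least 10 were compared between libraries by chi-square against equal shares of the totals. Of 42 pairs 40 were measured. No contrast between conditions exists, so edgeR 4.0.16 and DESeq2 1.42.0 served only for scaling. Both procedures were tested on simulated data with known answers. Of 50 genes set at 1 TPM, limma called 3 above and 3 below, and of 50 set at 2 TPM it called 49 above. Calls on genes near 1 TPM can thus be wrong in either direction. The chi-square test found 12 of 50 genes changed 1.1-fold in 1 library, 30 of 50 at 1.25-fold and 47 of 50 at 1.5-fold. In that simulation libraries differed by counting error alone, and the changed genes had counts well above the minimum for the test. For genes with fewer counts, or libraries with more spread, these rates were not measured. Small differences between libraries can thus be missed. Chi-square per degree of freedom between pairs of libraries was 1.67 to 2.36, where counting error gives about 1, so each library was counted. The members, lists and pairs were chosen with earlier results of these data known. Any member may be named, and of the other pathway genes the 3 highest and 3 lowest of each group, of which 1 is not reported here. Galc, Cers3, Sptlc3, Fads6 and Fabp9, named outside that rule, were chosen after their values were seen. Promoter sequences are from RefSeq (GRCr8), matched by symbol. Alternatives were other pseudocounts, filters, variance, scaling, levels, CPM (counts not divided by length) and left-out replicates.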

Additional observations from a re-analysis of the deposited data

How the results depend on the processing

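The number of members above 1 TPM by limma was 41 under each of the 8 alternatives, and those at 1 TPM or more in each library were 44 at a level of 0.5 TPM and 37 at 5 TPM. Members below 1 TPM numbered 0 by limma, but 3 with no filter on low values, which adds Elovl3 and Cers1 to the test and calls Elovl7, 1 with no trend, and 0 to 1 when replicates were left out in turn. Pathway genes outside the list that were below numbered 10, but 18 with no filter and 5 when genes averaging under 0.1 TPM were left out, settings that change how many near-silent genes are tested, and 8 to 10 without a replicate (alternatives also added after seeing the data). Acacb and Acsl6, near 1 TPM, changed sign when replicates were left out, with ranges of -0.012 to 0.082 and -0.074 to 0.16 on the log2 scale. The median of the members, 52.2 TPM, was 59.5 over members at 1 TPM or more, 53.7 without Elovl6, 55.2 without Cers1 and Elovl6 (chosen after seeing the data) and 51.9 to 52.7 without a replicate. Members differing between libraries by chi-square numbered 3, but 2 with TMM or DESeq2 scaling and 1 to 2 without a replicate. Pairs changed most in CPM, where length is not divided out: 31 of 40 log2 ratios moved by over 1 SD and 3 changed sign, Fads1 to Fads2 (0.37), Sptlc1 to Sptlc2 (-0.21) and Sgms1 to Ugcg (-0.72, and -0.016 to 0.045 without a replicate). Depth limits the genes with few counts, Elovl7, Fabp4, Fabp7 and Acsl6. No paired analysis was possible because all samples belong to a single group.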
